A study of Homo sapiens with 4 samples.

Results

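The genes described here are those of the MHC class II antigen presentation pathway and their regulator: CIITA, CD74, HLA-DRA, HLA-DPA1, HLA-DPB1, HLA-DMA, HLA-DMB, HLA-DQA1, HLA-DQB1 and HLA-DOB. They were chosen by name, as every probe whose RefSeq accession maps to one of them, which gave 10 of 18203 genes with a probe and 16 of 41000 probes. The series asked how actin-related proteins of the INO80 chromatin remodeling complex act on transcription under oxidative stress, in Nalm-6, a human pre-B leukemia cell line. RNA of 4 cultures was measured on 4 Agilent arrays of 1 colour, 1 array per genotype, so that no difference between genotypes has a replicate check and no test is given. The groups were wild type (WT), a knockout of Arp5 (Arp5 KO), a knockout of Arp8 (Arp8 KO) and an array labelled as overexpression of Arp8 (Arp8 OE). Arp5 KO is 1 line made with targeting vectors, and it grew somewhat more slowly than WT. Arp8 KO comes from earlier work, in which a conditional knockout of Arp8 was lethal; how far the cells had lost Arp8 at harvest is not given in the sources used here, nor is the overexpression line described.

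By the treatment protocol, heme was added at 20 uM for 12 hours to provoke oxidative stress. The labels conflict for the knockouts: the titles and the design text give heme for every culture, the treatment field of both knockouts gives no heme, and the sample source gives no heme for Arp5 KO but heme for Arp8 KO. Heme and genotype therefore cannot be told apart in a difference between a knockout and WT. ACTR5, the gene of Arp5, was lower by 4.27 on the log2 scale in Arp5 KO than in WT. Both probes of ACTR8, the gene of Arp8, were lower in Arp8 KO, with log2 differences of -0.53 and -0.68. The differences from WT were 0.02 and -0.01 for the array labelled Arp8 OE, so the probes show no higher ACTR8 there, and every direction drawn from this array is that of the array labelled Arp8 OE. All 9 B-precursor markers described (CD79A, CD22, DNTT and others) were well above background on the 4 arrays. Of the markers of other cells, 1 of 4 T cell genes, 1 of 3 mature B genes, 3 of 5 myeloid genes and 1 of 3 dendritic genes with a probe reached that mark on any array, and the summed level of each of these lists stayed at or below 0.22 of an array's 75th percentile signal. CR2 and CLEC9A had no probe by that symbol. Of 4 plasma cell markers 3 reached the mark, XBP1 among them. Their summed level was 113 times that percentile on the WT array, 108 with Arp5 KO, 117 with Arp8 KO and 145 with Arp8 OE. Most of that sum came from the brighter XBP1 probe, which was highest in Arp8 OE. SDC1 was highest in Arp8 KO, TNFRSF17 was well above background on WT alone and PRDM1 on no array. The summed level of the B-precursor markers was also highest in Arp8 OE, at 341, beside 290 (WT), 285 (Arp5 KO) and 267 (Arp8 KO). The brightest probes in it were those of IGLL1. Most member probes below were highest in Arp8 OE too, some of them narrowly. The part of either list in the members' values was not tested.

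MHC class II molecules carry peptides of endocytosed proteins to the cell surface for CD4+ T cells, and B-lineage cells make them without induction. CIITA, the class II transactivator, binds no DNA by itself but is recruited by factors that sit on the X and Y boxes of class II promoters. The chains are assembled with the invariant chain CD74, whose remnant is exchanged for peptide by HLA-DM, and HLA-DO holds HLA-DM back.

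The promoter windows of the members are shown first because CIITA reaches its targets through them. RefSeq (GRCh38.p14) windows of 250 bases before the gene start were at hand for 8 members, 9 windows in all, and not for HLA-DRA or CIITA. They were searched on both strands for CNAG, any 3 bases and CNGA, letters of the X box core chosen with these windows in view, and for ATTGG, the Y box core, which do not overlap in the stretches shown. The X letters were present in 6 of the 9 windows, against 13.8% of all 35116 windows. The Y letters were present in 7 of the 9, against 32.0%. The X letters followed by the Y letters on the same strand, with starts no more than 60 bases apart, were present in 4 of the 9, against 0.589% of all windows. As the X letters were chosen with these windows in view, the shares that involve them are no test of enrichment. A match is a description of letters and not of a bound site. In each line below the capitals mark the X letters first and the Y letters second where both are present.
HLA-DMA, chr6:32953166-32953216, minus strand: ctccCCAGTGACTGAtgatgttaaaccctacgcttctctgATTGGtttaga
HLA-DQA1, chr6:32637298-32637348, plus strand: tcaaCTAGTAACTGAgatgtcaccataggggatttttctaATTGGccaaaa
HLA-DQB1, chr6:32666735-32666784, minus strand: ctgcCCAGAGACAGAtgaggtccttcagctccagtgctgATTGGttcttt
HLA-DOB, chr6:32817090-32817138, minus strand: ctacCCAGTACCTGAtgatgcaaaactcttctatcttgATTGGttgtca
HLA-DMB, chr6:32941063-32941122, minus strand: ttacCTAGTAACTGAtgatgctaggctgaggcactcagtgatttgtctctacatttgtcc
HLA-DPA1, chr6:33073695-33073754, minus strand: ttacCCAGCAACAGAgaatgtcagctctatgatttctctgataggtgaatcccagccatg
HLA-DPB1, chr6:33075842-33075901, plus strand: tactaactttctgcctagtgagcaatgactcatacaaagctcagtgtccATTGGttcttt
CD74, chr5:150412953-150413012, minus strand: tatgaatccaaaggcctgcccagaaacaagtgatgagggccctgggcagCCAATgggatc
In the first 4 stretches the X and Y letters start 34 to 36 bases apart. One of the windows of HLA-DPA1 held the X letters without the Y letters, and HLA-DMB held the X letters with ATTGG elsewhere in its window on the opposite strand. HLA-DPB1 held ATTGG without the X letters, and CD74 held it on the opposite strand alone, where it reads CCAAT.

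Levels are given as log2 of the processed signal over the 75th percentile of the array, so that 0 is the signal of the 75th percentile. They are compared between arrays for the same probe and not between probes. Of the 16 member probes, 13 were well above background on the 4 arrays, 1 on a part of them and 2 on none. No member probe was past 2-fold (a log2 difference of 1) between any of the 6 pairs of arrays, and the range of a probe over the 4 arrays ran from 0.36 to 0.84. Among all probes tested, the Arp5 KO array had 1.69% past 2-fold higher than WT and 2.01% past 2-fold lower. The shares were 3.37% and 4.35% for Arp8 KO against WT, 2.96% and 2.15% for Arp8 OE against WT, and 2.53% and 3.18% for Arp8 KO against Arp5 KO.

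Smaller differences were read against 3 technical SDs of a difference between 2 arrays, taken from the probes printed 10 times on each array that were well above background, 180 to 184 of 264 per array. This is 0.22 for levels above 0, 0.30 for levels from -3 to 0 and 0.62 for dimmer probes, the last resting on 14 to 22 probes per array, and it covers the spots of an array but not the culture, the RNA or the labelling. The scanner software's own error per spot was larger, 0.144 to 0.185 on the log2 scale for the 13 member probes well above background on the 4 arrays, and larger again for the other 3, which are probes of HLA-DQ. For a difference, the errors of its 2 arrays were combined as the root of their summed squares. The median of this combined error was 0.204 in each comparison with WT. With 3 times the combined error in place of 3 technical SDs, no member probe was past the limit against WT. Between the knockouts the pair of CIITA probes was. Counts past 3 technical SDs below are therefore descriptions of 4 RNA samples.

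**Figure D1:**
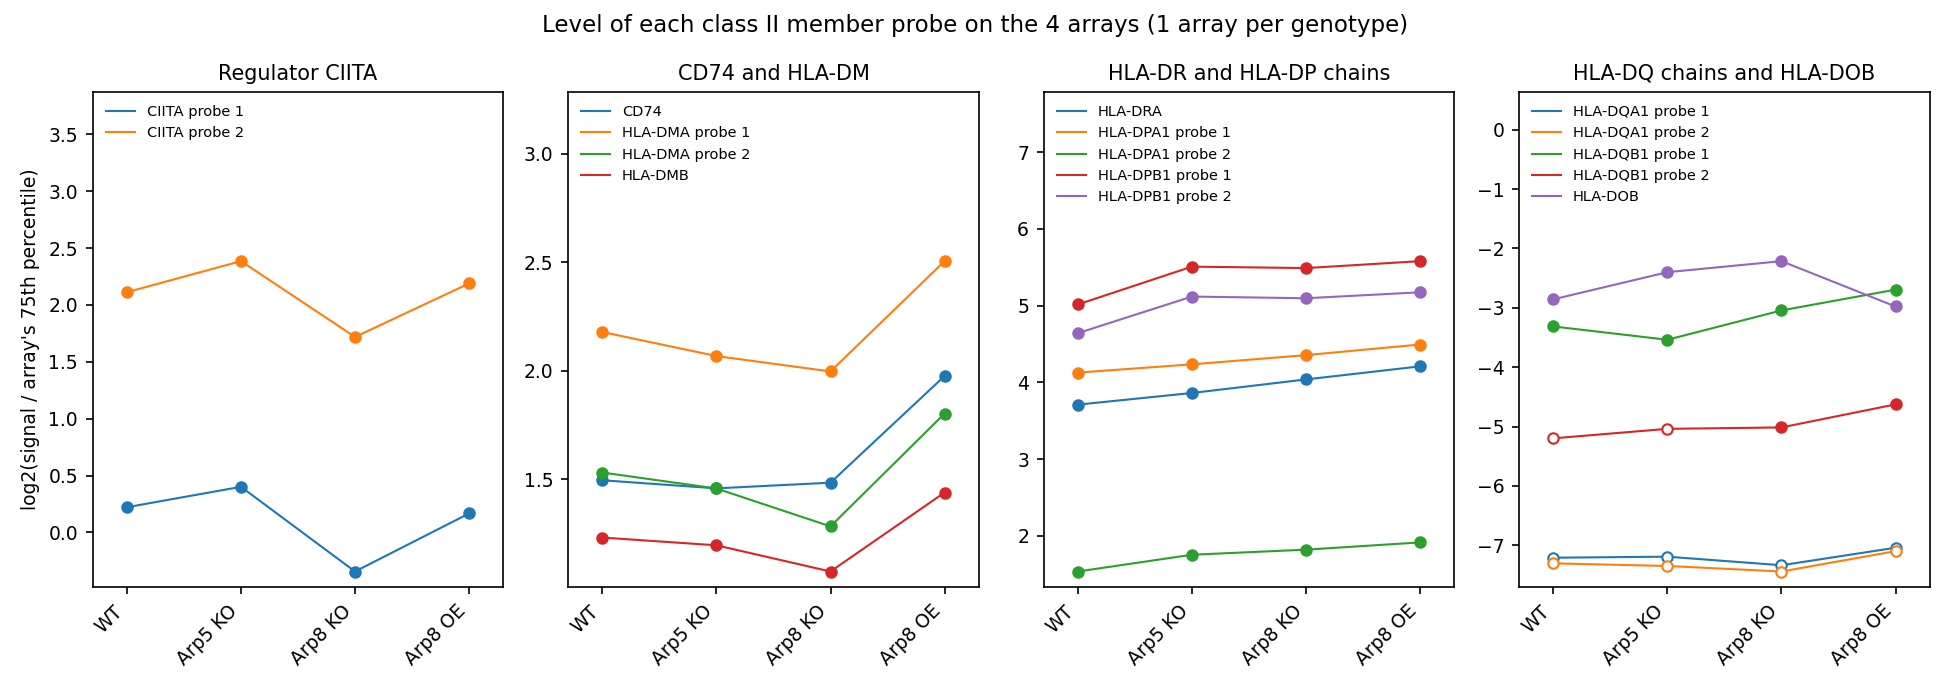
Level of each member probe on the 4 arrays, as log2 of the signal over the array's 75th percentile, in 4 panels by role, with their own vertical scales; filled points are well above background, open points are not, and the lines only join the same probe. CIITA is lowest on the Arp8 KO array, CD74 and the HLA-DM genes are highest on the array labelled Arp8 OE, the HLA-DR and HLA-DP probes are lowest on the WT array, and neither HLA-DQA1 probe is well above background on an array.

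The regulator CIITA was the member with the widest gap between the knockouts. Its first probe (A_23_P33384) had levels of 0.22 (WT), 0.40 (Arp5 KO), -0.34 (Arp8 KO) and 0.17 with Arp8 OE. Its second probe (A_32_P209960) had levels of 2.11, 2.39, 1.72 and 2.19 in the same order. Both probes were highest in Arp5 KO and lowest in Arp8 KO, with WT and Arp8 OE between them and within 2 technical SDs of each other. Against WT, the log2 difference in Arp8 KO was -0.57 on the first probe and -0.39 on the second, which is 1.48-fold and 1.31-fold lower. The differences of Arp5 KO were 0.18 and 0.27, of which only the second was past 3 technical SDs. Between the knockouts, CIITA was lower in Arp8 KO than in Arp5 KO by a log2 difference of -0.74 on the first probe and -0.67 on the second (1.68-fold and 1.59-fold). In bulk RNA, fewer cells that use a gene and less RNA per cell cannot be told apart.

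The HLA-DR and HLA-DP chains, the peptide-binding partners at the cell surface, were at their lowest in WT on every probe. HLA-DRA, the shared alpha chain of HLA-DR, had levels of 3.71 (WT), 3.86 (Arp5 KO), 4.04 (Arp8 KO) and 4.21 with Arp8 OE, each step being over 2 technical SDs. Its log2 differences from WT were 0.15, 0.33 and 0.50. Those in Arp8 KO and Arp8 OE were past 3 technical SDs, the latter being 1.41-fold.

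HLA-DPB1, the beta chain of HLA-DP, was higher than WT by nearly the same amount on the other arrays. Its first probe (A_23_P258769) had levels of 5.02 (WT), 5.51 (Arp5 KO), 5.49 (Arp8 KO) and 5.58 with Arp8 OE. Its second probe (A_24_P166443) had levels of 4.64, 5.12, 5.10 and 5.18. The log2 differences from WT were 0.49, 0.47 and 0.56 on the first probe and 0.48, 0.45 and 0.53 on the second, all past 3 technical SDs. The pair of probes thus gave nearly the same values, and the knockouts differed from each other by -0.02 on both.

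HLA-DPA1, the alpha chain of HLA-DP, whose gene lies next to HLA-DPB1 and points the other way, had smaller differences. The levels of its first probe (A_23_P30913) were 4.13 (WT), 4.24 (Arp5 KO), 4.36 (Arp8 KO) and 4.49 with Arp8 OE. The levels of its second probe (A_24_P243528) were 1.54, 1.76, 1.82 and 1.92. Both probes kept the order WT, Arp5 KO, Arp8 KO, Arp8 OE, but neighbours were within 2 technical SDs, except WT and Arp5 KO on the second probe. The log2 differences from WT were 0.11, 0.23 and 0.37 on the first probe and 0.22, 0.28 and 0.38 on the second. Those of Arp8 KO and Arp8 OE were past 3 technical SDs, by a narrow margin on the first probe in Arp8 KO, where cyclic loess gave 0.21, under the limit. The second probe in Arp5 KO was just under it. The second probe has adjacent spots that are bright on the Arp8 KO array alone, and their part in its value there was not tested.

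Over the 5 probes of HLA-DRA, HLA-DPA1 and HLA-DPB1 the median log2 difference from WT was 0.22 with Arp5 KO, 0.33 with Arp8 KO and 0.50 with Arp8 OE. All 5 were above 0 on each of these arrays, and under every scaling tried. Since each of these differences uses the same WT array, a low value there enters all of them. Against the array labelled Arp8 OE in place of WT, the 5 probes lay below it, by -0.06 to -0.35 in Arp5 KO and by -0.08 to -0.17 in Arp8 KO.

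CD74 and HLA-DM, which guard and load the peptide groove, followed another order. CD74 (A_23_P70095) had levels of 1.50 (WT), 1.46 (Arp5 KO), 1.48 (Arp8 KO) and 1.98 with Arp8 OE. The first 3 arrays were within 2 technical SDs, and Arp8 OE was higher than WT by 0.48, or 1.40-fold. HLA-DMA, the alpha chain of HLA-DM, had levels of 2.18, 2.07, 1.997 and 2.51 on its first probe (A_23_P42306) and of 1.53, 1.46, 1.28 and 1.80 on its second (A_24_P50245). On both probes Arp8 OE stood above the other arrays and Arp8 KO was lowest. The differences from WT were -0.11, -0.18 and 0.33 on the first probe and -0.07, -0.25 and 0.27 on the second. In Arp8 OE both were past 3 technical SDs, and in Arp8 KO only the second was. HLA-DMB, the beta chain, had levels of 1.23 (WT), 1.20 (Arp5 KO), 1.08 (Arp8 KO) and 1.44 with Arp8 OE, and none of its differences from WT was past 3 technical SDs.

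Over the 4 probes of CD74, HLA-DMA and HLA-DMB the median difference from WT was -0.06 with Arp5 KO, -0.17 with Arp8 KO and 0.30 with Arp8 OE. All 4 were below 0 in both knockouts and above 0 in Arp8 OE, except that CD74 in Arp8 KO moved from -0.01 to 0.0064 when arrays were scaled to their median. In Arp8 KO, then, both CIITA probes and 1 of the 3 HLA-DM probes were past 3 technical SDs lower than WT. The 5 probes of the HLA-DR and HLA-DP chains were past it higher, the first HLA-DPA1 probe narrowly and not with cyclic loess. Whether these differences differ from each other was not tested. Of all probes tested in Arp8 KO against WT, 21.6% were past 3 technical SDs lower and 23.2% higher.

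HLA-DQ, the third surface pair, was dim. Neither probe of HLA-DQA1, the alpha chain, stood well above background on an array, with signals between 3.8 and 5.1 where the 75th percentile was 647 to 740. The first probe of HLA-DQB1 (A_23_P136683), the beta chain, had levels of -3.31 (WT), -3.54 (Arp5 KO), -3.04 (Arp8 KO) and -2.69 with Arp8 OE. Arp8 OE was higher than WT by 0.62, which equals 3 technical SDs for a probe this dim, and the values of Arp5 KO (-0.22) and Arp8 KO (0.27) were well inside. With normexp background correction the difference of Arp8 OE was 0.36. The second probe (A_24_P239676) was well above background only in Arp8 KO and Arp8 OE. Its difference of Arp8 OE from WT was a bound of 0.38 (1.30-fold), inside 3 technical SDs, and 0.16 with normexp. There is no fold to give for Arp8 KO. Nalm-6 cells carry their own HLA alleles, and how well each probe matches them was not tested.

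HLA-DOB, the beta chain of HLA-DO, was past 3 technical SDs higher than WT in both knockouts. It had levels of -2.86 (WT), -2.40 (Arp5 KO), -2.21 (Arp8 KO) and -2.98 with Arp8 OE. The knockouts were within 2 technical SDs of each other, as were WT and Arp8 OE. The log2 difference from WT was 0.46 in Arp5 KO (1.37-fold) and 0.64 in Arp8 KO (1.56-fold), both past 3 technical SDs, and -0.12 in Arp8 OE. With normexp correction the knockout values were 0.27 and 0.43.

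**Figure D2:**
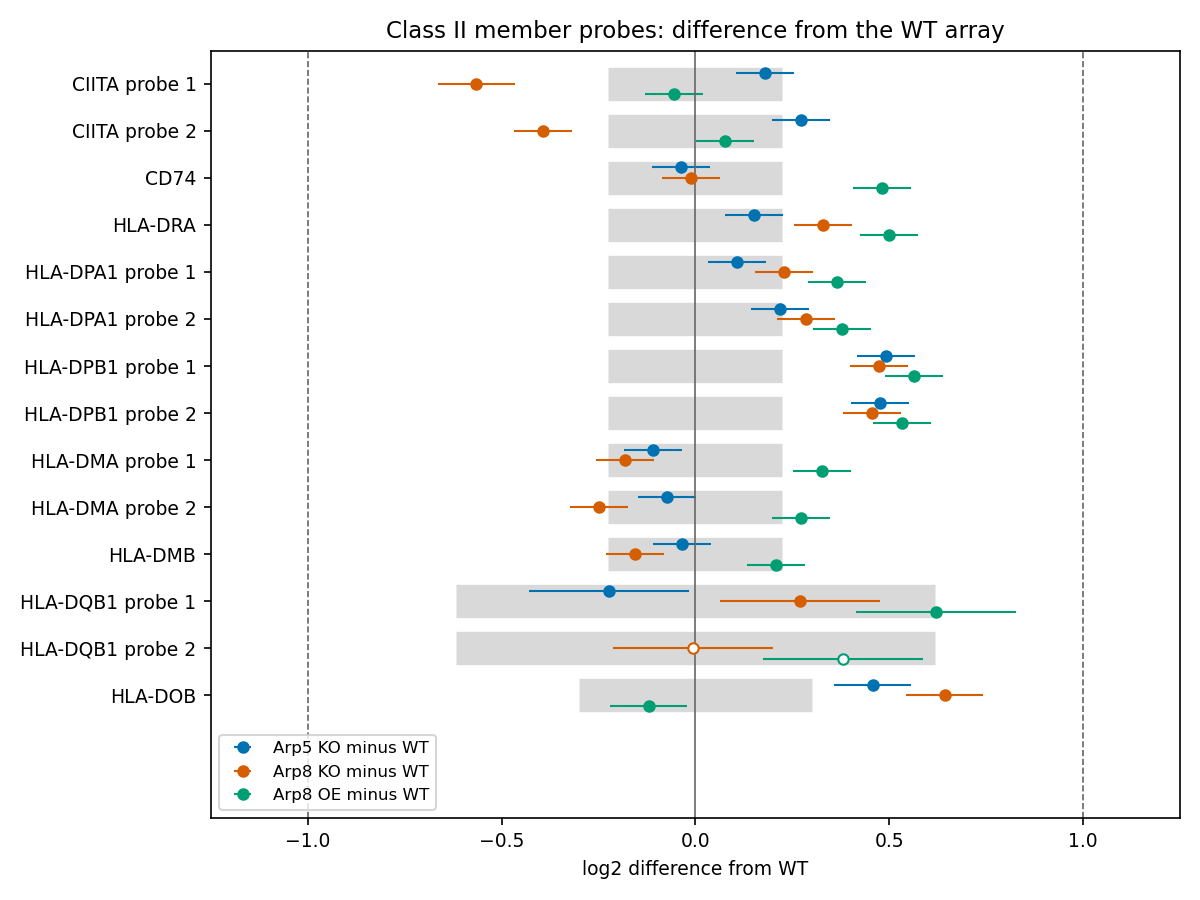
Log2 difference of each member probe from the WT array, with 1 technical SD of a difference as the bar; grey bands span 3 technical SDs for Arp8 OE against WT (for the first CIITA probe in Arp8 KO the limit is 0.30), dashed lines mark 2-fold and open points are bounds. Both CIITA probes lie left of the band in Arp8 KO, all HLA-DPB1 points lie right of it, and no point reaches 2-fold.

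Counted over the members, 4 of 13 probes tested were past 3 technical SDs higher and 0 lower in Arp5 KO than in WT, where 11.7% of all probes were higher and 11.3% lower. In Arp8 KO 6 of 14 were higher and 3 lower, where all probes gave 23.2% and 21.6%. In Arp8 OE 9 of 14 were higher and 0 lower, where all probes gave 19.2% and 17.6%. Between the knockouts 0 of 14 were higher in Arp8 KO and 2, both of CIITA, were lower, where all probes gave 18% and 17.9%. The median difference of the members from WT was 0.15 with Arp5 KO, 0.11 with Arp8 KO and 0.37 with Arp8 OE, beside 0.0042, 0.026 and 0.00024 over all probes tested. The median in Arp8 KO had no settled sign, since it was -0.0061 without the probe that has bright adjacent spots and 0.23 over the probes well above background on both arrays. The comparisons with WT share 1 array and are not independent of each other. Members are also not independent of each other, since several genes have a pair of probes. The members were highest in Arp8 OE on 10 of the 13 probes detected on every array, in Arp5 KO on 2 (both of CIITA), in Arp8 KO on 1 (HLA-DOB) and in WT on 0. On the HLA-DPA1 and HLA-DPB1 probes and the first HLA-DQB1 probe, Arp8 OE was within 2 technical SDs of the next array. The share of all probes that were highest in Arp8 OE is not given, so this count is not set against a general rate.

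The class II chains outside the members were measured as well. HLA-DRB1, HLA-DRB3, HLA-DRB4 and HLA-DRB5, the beta chains of HLA-DR, are near-identical copies whose probes may read each other's RNA, so the gene behind each value is uncertain. Over their 5 probes the median difference from WT was 0.08 with Arp5 KO, 0.18 with Arp8 KO and 0.40 with Arp8 OE. The HLA-DRB1 probe (A_24_P343233) was printed 10 times, and its log2 level was 4.28 ± 0.05 (SD of 10 spots on 1 array) on WT, 4.35 ± 0.05 on Arp5 KO, 4.46 ± 0.05 on Arp8 KO and 4.67 ± 0.10 on Arp8 OE. Of the spots beside its own, 1 is bright on the Arp8 KO array alone and 1 on the Arp8 OE array alone, and their part in these values was not tested. The 4 arrays thus stand in the order seen for HLA-DRA. Over all 10 probes tested of the other class II chains, which also hold HLA-DOA, HLA-DQA2 and HLA-DQB2, 0 were past 2-fold. This is near the share of all probes, 1.69% to 4.35% in a given direction. The medians of these chains were 0.06, 0.17 and 0.41. Past 3 technical SDs higher than WT were 0 of the 10 in Arp5 KO (all probes, 11.7%), 2 with Arp8 KO (23.2%) and 8 with Arp8 OE (19.2%), and 0 were lower on any of these arrays.

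Class I genes, which present peptides to CD8+ T cells and lie in the same gene complex (B2M apart), had another order of arrays. Over 10 probes of the class I heavy chains HLA-B, HLA-C, HLA-E, HLA-F and HLA-G and of B2M, the median difference from WT was 0.26 with Arp5 KO, 0.67 with Arp8 KO and 0.27 with Arp8 OE, and all 10 were above 0 on each array. How far the heavy chain probes read each other's RNA was not tested, so the 10 probes may not be separate readings of their genes. The median of these 10 probes was highest in Arp8 KO, where CIITA was lowest, while the median of the HLA-DR and HLA-DP chains was highest in Arp8 OE. The difference between the classes was not tested. NLRC5, the transactivator of class I genes, gave differences of 0.53, 0.67 and 0.63 and of 0.42, 0.59 and 0.38 on a pair of probes, while its remaining probe gave -0.10, -0.17 and -0.08. In the class I presentation list, 1 of 31 probes tested was past 2-fold, where 2.96% of all probes were past it higher in Arp8 OE. This was a dim probe of TAPBP (tapasin), higher by 1.64 in Arp8 OE. It has adjacent spots bright on the Arp8 OE array alone, and their part in the 1.64 was not tested. The brightest of the TAPBP probes gave 0.15. The medians of that list were 0.06, 0.19 and 0.15.

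**Figure D3:**
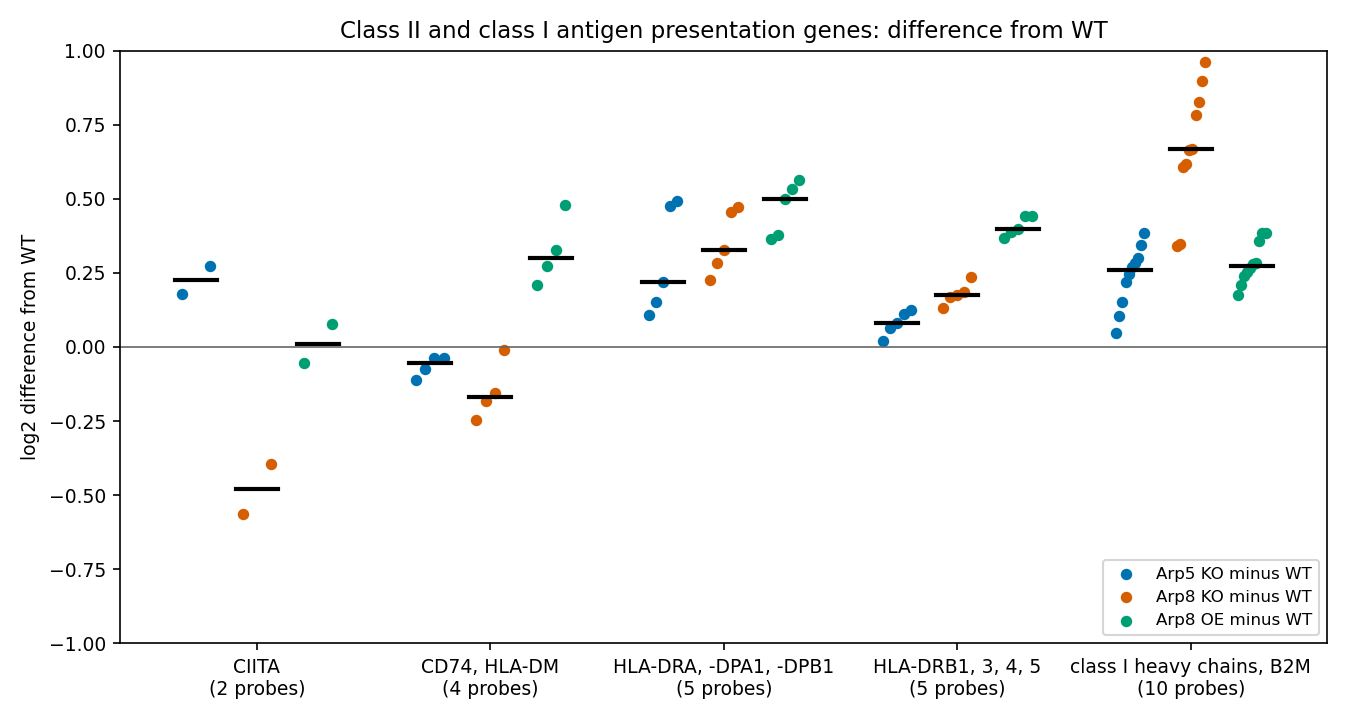
Log2 difference from WT of single probes (points) and their median (black line) for CIITA, CD74 with HLA-DM, HLA-DRA with HLA-DPA1 and HLA-DPB1, the HLA-DRB genes, and the class I heavy chains with B2M, for each array other than WT. The class I medians are 0.26, 0.67 and 0.27, those of the HLA-DR and HLA-DP chains are 0.22, 0.33 and 0.50, and those of CIITA are 0.23, -0.48 and 0.01.

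Most of the members lie together on chromosome 6. In the RefSeq order of the protein-coding genes from BTNL2 to COL11A2 there are 20 genes, of which 19 had a probe, and 8 of the members are among them. HLA-DRA stands at one end and HLA-DPB1 at the other. The files use build hg19, so the order of the genes is given and not their positions. Neighbouring genes did not all differ in one direction. In Arp8 KO, HLA-DOB was higher than WT by 0.64, and PSMB8 (0.41) and TAP1 (0.56), genes of class I peptide supply that follow, were also higher, though TAP2 between them and HLA-DOB gave 0.08 on its brighter probe. HLA-DMB, further along, gave -0.16 and HLA-DMA gave -0.18 and -0.25, of which only the last was past 3 technical SDs. BRD2, a chromatin reader gene beside HLA-DMA, gave -0.36 and -0.12 on its probes in Arp8 KO, and HLA-DPA1 and HLA-DPB1 beyond it were higher. COL11A2, the collagen gene beyond HLA-DPB1, gave 0.23 with Arp5 KO, 0.55 with Arp8 KO and -0.51 with Arp8 OE. BTNL2 had no probe by that symbol.

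**Figure D4:**
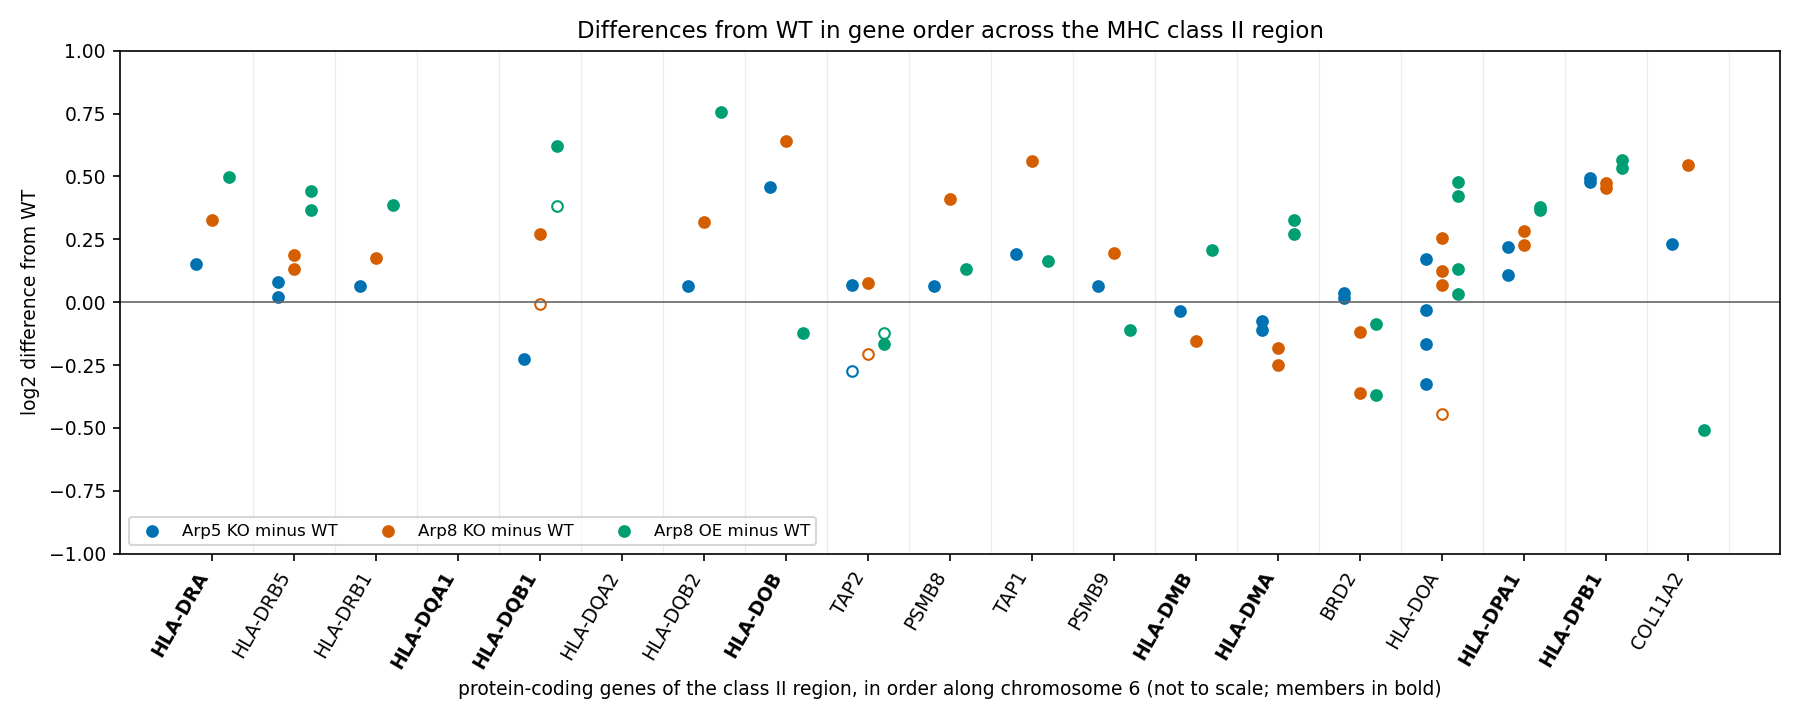
Log2 difference from WT for every tested probe of the protein-coding genes of the class II region, in their order along chromosome 6 (not to scale), with members in bold and bounds as open points. In Arp8 KO, HLA-DOB at 0.64 and TAP1 at 0.56 lie above 0, HLA-DMB and HLA-DMA below it, and HLA-DPB1 at 0.45 and 0.47 above it again.

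RNA of the proteins that CIITA needs at class II promoters was measured too. Of the 13 probes of the enhanceosome genes (the RFX and NF-Y subunits and CREB1), 0 were past 2-fold in any of the 4 comparisons. Over all probes 1.69% to 4.35% were past 2-fold in a given direction, so 0 in a list this short is near that share. The median differences from WT were -0.01 with Arp5 KO, 0.07 with Arp8 KO and 0.12 with Arp8 OE. RFXAP, an RFX subunit, gave the largest value, -0.93 in Arp8 OE, beside -0.55 with Arp5 KO and -0.28 with Arp8 KO. Spots next to its probe are bright on the WT array alone, which enters each of these differences. Their part in these values was not tested. NFYA, which reads the Y box with its partners, gave 0.43, 0.79 and 0.21 on its brightest probe and 0.54, 0.71 and 0.23 on the next. Its dimmest probe gave 0.18, 0.16 and 0.27, all inside 3 technical SDs. RFX5, the DNA-binding RFX subunit, gave 0.08, 0.59 and 0.25, and a spot next to its probe is bright on the Arp8 KO array alone; its part in the 0.59 was not tested.

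Of the factors known to act on the CIITA gene itself, 7 of 9 probes were tested in each comparison and 0 were past 2-fold. This is near the share of all probes, 1.69% to 4.35% in a given direction. IRF8 and PRDM1 (the repressor that closes CIITA in plasma cells) did not stand above background on an array. The largest differences from WT among these were those of SPI1 (PU.1), with -0.79 in Arp5 KO and -0.54 for Arp8 KO, the latter inside 3 technical SDs for so dim a probe. IRF4 gave 0.00, -0.49 and -0.11 on its dimmer probe and 0.28, -0.21 and 0.08 on its brighter one, where -0.21 was inside 3 technical SDs. IRF1 gave 0.27, -0.25 and 0.10. PAX5 gave 0.02, -0.08 and 0.09. The medians of the list were 0.02, -0.21 and 0.10.

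In a list of genes around class II peptide loading, which also holds membrane proteins (tetraspanins) and ubiquitin ligases, 9 or 10 probes were tested per comparison. The medians of this list were -0.09, -0.37 and 0.14. IFI30, the thiol reductase of endosomes, was lower by 0.93 on the log2 scale in Arp8 KO, with signals of 15816 (WT), 14485 (Arp5 KO), 7424 (Arp8 KO) and 11676 with Arp8 OE. CTSS, the protease that trims CD74, gave -0.09, -0.23 and 0.15 on its brighter probe. Its dim probe was well above background in Arp8 OE alone, at least 2.18-fold higher than in WT. It was the only probe of this list past 2-fold, where 2.96% of all probes were past it higher in Arp8 OE. MARCHF8 had no probe by that symbol. CIITA targets outside class II (RAB4B, BTN2A2 and others) had 0 of 9 tested probes past 2-fold, near the 1.69% to 4.35% of all probes in a given direction. This list had medians of 0.07, -0.01 and 0.25 and shares CD74 and RFX5 with those above. Its largest values were that of RFX5 and that of a dim PLXNA1 probe, lower in Arp8 KO by at least 1.60-fold.

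Several B-precursor genes differed more from WT than any member did. CD22, a B cell inhibitory receptor, gave -0.89 with Arp5 KO, -2.58 with Arp8 KO and -0.73 with Arp8 OE. DNTT, the terminal transferase of early lymphocytes, gave 0.84, 1.78 and 1.02. VPREB1, of the surrogate light chain, gave -0.42, -1.26 and 0.00. RAG1 was 2.15-fold higher than WT in Arp8 OE on its dimmer probe. The log2 differences of that probe were 0.38 with Arp5 KO and 0.79 with Arp8 KO. The brighter RAG1 probe gave 0.36, 0.98 and 0.96, with Arp8 KO and Arp8 OE within 2 technical SDs of each other. Over the 13 B-precursor probes the medians were 0.02, -0.08 and 0.13. Their part in the class II values was not tested. CIITA and HLA-DQB1, for which genes of a like pattern were to be sought, had ranges of 0.67 and 0.84 over the 4 arrays, under the log2 range of 1 that was asked for, so that no such genes are named.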

How the data were processed

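Total RNA of 4 Nalm-6 cultures was hybridised to 4 one-colour Agilent arrays on 1 slide. The intensity in the deposited files, on a linear scale, was obtained by the authors with Agilent Feature Extraction 10.10.1.1 (grid build hg19, per the file headers), which subtracted the background in each array without normalizing the arrays to each other. The authors' deposited series matrix equals that intensity times 1 factor per array. The level used here is the log2 ratio of the processed signal to the 75th percentile of the non-control spots, without outlier spots (69 to 76 per array), with spots of a probe averaged on the log2 scale. A probe counted as well above background where 50% or more of its spots were flagged so, and entered a comparison if this held for 1 or more of the arrays. A probe below that mark took its own value or, where higher, the array's lowest value well above background, and its difference is a bound. Groups came from the genotype in the labels. As each group has 1 array, nothing was tested, and precision is limited by the 4 arrays.

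Of the 41000 probes, 27210 matched a symbol through RefSeq accessions (GRCh38.p14). The member genes and lists were chosen with earlier results of these data known, and the rule of 3 technical SDs after the members' differences were seen. Genes named are the members, ACTR5 and ACTR8, list genes past 2-fold or, in lists with none, those with the largest differences, and neighbours in the class II region; others (NLRC5, IRF1, IRF4, PAX5, IFI30 and the class I genes) were chosen after their values were seen. Scaling, background correction, filters, the mean over a gene's probes, the threshold and the reference array were varied with python 3.11.15 and limma 3.58.1 in R 4.3.3. Normexp (offset 50) used the median signal of each spot. Some genes of the lists are not reported here and enter no count or median of a list. Differences and calls past 2-fold were tested on simulated data, in probes of higher signal that were changed by more than 2-fold. Smaller differences, the limit of 3 technical SDs and the bounds of dim probes were not simulated.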

Additional observations from a re-analysis of the deposited data

Results flagged for a closer look

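The second CIITA probe (A_32_P209960) differed from WT in opposite directions in the knockouts, by 0.27 in Arp5 KO and by -0.39 in Arp8 KO on the log2 scale, both past 3 technical SDs. The first CIITA probe had the same signs, with 0.18 and -0.57. The second HLA-DMA probe (A_24_P50245) had log2 differences from WT of -0.25 with Arp8 KO and 0.27 with Arp8 OE, and the first HLA-DMA probe gave -0.18 and 0.33. With 1 array per genotype these differences between groups were not tested.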

How the results depend on the processing

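In 12 alternative settings 666 values were recomputed. Of these, 616 stayed within the technical SD or within 1.5 times a count, and 50 moved. Values past 2-fold that changed sign numbered 0, since no member was past 2-fold. Part of the 616 could not have moved. The series matrix holds the same intensity times 1 factor per array, and a 4-fold threshold gives 0 where 2-fold gave 0. Median scaling shifts every difference of a comparison by 1 constant of no more than 0.035, under the technical SD. Of 460 single-probe differences 35 moved, 25 of them with Arp8 OE as the reference and 10 with normexp. With Arp8 OE in place of WT as the reference, 2 member probes were higher and 7 lower past 3 technical SDs in Arp5 KO, with a median of -0.25, and 1 was higher and 7 lower in Arp8 KO, with a median of -0.36. With the mean over a gene's probes, 1 gene was lower in Arp8 KO than in WT, 5 were higher in Arp8 OE and 1 was lower in Arp8 KO than in Arp5 KO, where fewer units were counted. Neither these counts nor those against Arp8 OE have a share of all probes beside them, so they are not set against a general rate. With the scanner software's error in place of the technical SD, 0 members were higher than WT in Arp5 KO, Arp8 KO or Arp8 OE and 0 were lower in Arp8 KO. The median in Arp8 KO was 0.23 over probes well above background on both arrays and -0.0061 without the probe beside bright spots; the cause was not tested. No scaling moved the median of all probes by more than 0.035. The thresholds of 3 technical SDs and of the scanner's error were chosen after seeing the data. No paired analysis was possible because each group has 1 array and the shared replicate number has no second pair. Dim probes (HLA-DQA1, HLA-DQB1, HLA-DOB) are limited by signal over background.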
